A study of Mus musculus with 2 samples.

Results

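Solute carrier (SLC) genes encode membrane proteins that move small molecules and ions across the cell surface and the membranes of organelles. The 142 genes described here were selected on symbol and abundance from 2 RNA-seq libraries of mouse myeloid-derived suppressor cells (MDSCs). They were the protein-coding genes with a symbol of the form Slc, a number and a letter, and at least 100 counts summed over both libraries. Families Slc11, Slc30, Slc39 and Slc40 and the genes Slc2a1, Slc2a3, Slc7a1 and Slc7a2 were left out. Of 371 protein-coding genes with such a symbol, 31 were left out in this way, and 198 of the remaining 340 fell short of the minimum, 87 of them with no count in either library. The count table held 54751 genes in all. The sum of counts chose the members and the ratio between libraries did not, but low genes could pass only through the library in which they were higher. Just inside the minimum, the multivitamin transporter gene Slc5a6 had 104 counts over both libraries, Slc25a26 had 110 and Slc26a10 had 115. Just outside it, Slc35e4 had 96 counts, Slc9a5 had 93 and Slc26a6 had 89.

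The cells were grown from wild-type mouse bone marrow and are named for their capacity to restrain T cells. One culture was given mrWNT2 on day 0 and day 3, and the other received vehicle (control) on the same days. RNA of each was taken on day 6. There was 1 library per group, so no difference below has a replicate check and no test across genes was possible. The mrWNT2 library held 12621110 counts and the control library 13474453. The myeloid integrin gene Itgam stood at 477 CPM (counts scaled to library size) in mrWNT2 and 495 CPM in control, and the neutrophil calprotectin genes S100a8 and S100a9 were among the most abundant markers.

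SLC proteins are grouped into families by sequence, and a family often shares a kind of solute. Some work as exchangers that trade one solute for another, some couple transport to the sodium or proton gradient, and the Slc25 family carries metabolites over the inner mitochondrial membrane. In myeloid cells SLC proteins supply amino acids, sugars, nucleosides and metal ions, and some of those on endosomes and lysosomes serve innate immune sensing.

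Most SLC genes were close to equal in the libraries. Of the 142 members, 122 (85.9%) differed by less than 1.5-fold, against 91.5% of all 9811 protein-coding genes with at least 100 counts. At least 1.5-fold higher in mrWNT2 were 16 members (11.3%), where 5.25% of all those protein-coding genes were, and 4 members (2.82%) were at least 1.5-fold lower, where 3.25% of all genes were. At 1.5-fold, the share of members on the higher side was thus above the background, and that on the lower side was near it. At least 2-fold higher were 4 members (2.82%, background 2.3%) and at least 2-fold lower were 3 (2.11%, background 0.978%). At 2-fold, where few members stood, the higher side was near the background and the lower side was above it. The 95% binomial (Clopper-Pearson) interval of the ratio lay above 1 for 47 members (33.1%, background 23.9%) and below 1 for 33 (23.2%, background 20.5%). These intervals come from the 2 counts of a gene and cover counting error only. The median log2 ratio of the members was 0.05, and that of all protein-coding genes was 0.02. Under upper-quartile scaling the members' median was -0.01 and 13 members were at least 1.5-fold higher, and under DESeq2 size factors 14 were.

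The larger share of members at least 1.5-fold higher was seen at low and at high counts. Among the 55 members with fewer than 500 counts, 8 were at least 1.5-fold higher (14.5%, against 9.29% of 3078 protein-coding genes) and 4 at least 1.5-fold lower (7.27%, against 5.88%). Among the 87 members with 500 counts or more, 8 were at least 1.5-fold higher (9.2%, against 3.4% of 6733 genes) and 0 at least 1.5-fold lower (against 2.05%). All 4 lower members were therefore weakly expressed genes. In sum, the members took 0.854% of mrWNT2 counts (exact 95% binomial interval 0.849 to 0.860) and 0.825% of control counts (0.820 to 0.830). Each value is the RNA of a whole culture, so a change in the number of cells of one type and a change in RNA per cell cannot be told apart.

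**Figure D1:**
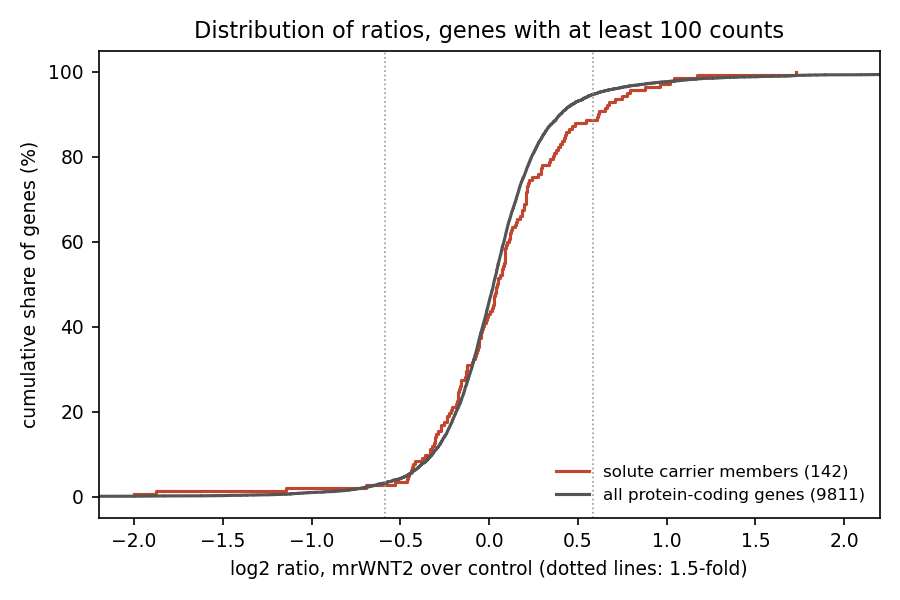
Cumulative share of genes (%, y axis) by log2 ratio of mrWNT2 over control (x axis), for the 142 solute carrier members (red) and all 9811 protein-coding genes with at least 100 counts (grey). The dotted lines mark 1.5-fold. The curves lie together at their 5th percentiles, -0.45 for members and -0.46 for all genes. They lie apart at their 95th percentiles, 0.77 for members and 0.61 for all genes.

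The highest ratio among the members was that of Slc6a12 (ENSMUSG00000030109, chromosome 6, 121343076 to 121365775, GRCm38), which encodes the betaine and GABA transporter BGT1. It had 624 counts in mrWNT2 and 198 in control, or 49.1 and 14.8 CPM, and was 3.31-fold higher (interval 2.82 to 3.91). Its neighbour on the same strand, Slc6a13, lies 5342 bases away and encodes a GABA and taurine transporter. It had 310 counts in mrWNT2 and 212 in control and was 1.54-fold higher (1.29 to 1.84). Under upper-quartile scaling the log2 ratio of Slc6a13 was 0.569, just short of 1.5-fold. The pair were the neighbours with the largest difference in the same direction among the 9 pairs of adjacent members less than 100000 bases apart. Slc36a2 and Slc36a1 are also neighbours, 19272 bases apart, yet the first was 4.0-fold lower and the second 1.07-fold lower. Slc38a1 and Slc38a2, 44478 bases apart, lay on opposite sides of a ratio of 1.

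Slc7a11 (ENSMUSG00000027737, chromosome 3, 49892526 to 50443614) encodes xCT, the light chain of the exchanger that brings in cystine for glutathione synthesis and releases glutamate. It had 2042 counts in mrWNT2 and 1043 in control, or 161 and 78.0 CPM. It was 2.06-fold higher (1.91 to 2.22) and had the largest gain in CPM of all members. Under upper-quartile scaling its log2 ratio was 0.99, just short of 2-fold. The exchanger needs the heavy chain CD98, encoded by Slc3a2, which had 2127 counts in mrWNT2 and 2195 in control, a ratio of 1.02 (0.960 to 1.08). Of 15 genes of glutathione and glutamine metabolism, 11 reached 100 counts and all 11 were within 1.5-fold (median log2 ratio -0.02). Gclm, a subunit of the enzyme that makes the glutathione precursor, had 167 CPM in mrWNT2 and 174 CPM in control.

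The sequences before the annotated starts are shown for Slc6a12 and Slc7a11, the highest members with a window, for Slc6a13 as the neighbour of Slc6a12, and for Slc9a9, the lowest member with a window. They are the 250 bases up to the start, from RefSeq (GRCm38.p6), with capitals marking letters found by search.
Slc6a12, chr6:121342826-121343075, plus strand: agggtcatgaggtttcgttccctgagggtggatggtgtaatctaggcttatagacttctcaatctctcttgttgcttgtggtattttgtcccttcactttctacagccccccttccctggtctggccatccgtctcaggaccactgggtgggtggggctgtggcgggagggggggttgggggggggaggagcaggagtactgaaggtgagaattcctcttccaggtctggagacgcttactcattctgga
Slc6a13, chr6:121300038-121300287, plus strand: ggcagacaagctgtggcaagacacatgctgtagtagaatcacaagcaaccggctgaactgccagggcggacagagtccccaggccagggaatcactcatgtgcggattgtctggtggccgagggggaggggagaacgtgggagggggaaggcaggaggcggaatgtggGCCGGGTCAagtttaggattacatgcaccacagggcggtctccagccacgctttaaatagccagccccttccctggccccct
Slc7a11, chr3:50443614-50443863, minus strand: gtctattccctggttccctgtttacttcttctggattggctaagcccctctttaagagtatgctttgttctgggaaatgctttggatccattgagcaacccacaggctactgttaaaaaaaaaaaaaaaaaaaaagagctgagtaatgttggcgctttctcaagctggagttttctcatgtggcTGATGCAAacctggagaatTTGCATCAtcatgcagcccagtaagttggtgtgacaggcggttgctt
Slc9a9, chr9:94669642-94669891, plus strand: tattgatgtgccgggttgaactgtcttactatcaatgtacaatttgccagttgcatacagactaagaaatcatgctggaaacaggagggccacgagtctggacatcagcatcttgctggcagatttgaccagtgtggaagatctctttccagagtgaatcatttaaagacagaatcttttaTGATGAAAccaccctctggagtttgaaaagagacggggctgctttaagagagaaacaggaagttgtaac

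The search covered both strands for 4 cores. They were TGATGNAA for C/EBP-ATF response elements, TGACNNNGC for antioxidant response elements, GGGANNTTC for NF-kB and CTTTGAT for TCF/LEF, the factors of canonical WNT signalling. No 2 marked sites overlapped in the printed windows. The window of Slc7a11 held the first core at -66 to -59 on its own strand and at -47 to -40 on the other, counted back from -1 at the base before the start. In mouse, amino acid response elements that bind ATF4 are known in this promoter. Slc9a9 held the same core at -69 to -62, Slc6a13 held the second core at -82 to -74, and the window of Slc6a12 held none of the 4. The C/EBP-ATF core was in 5 of 99 members' windows (5.05%) and in 3.45% of all 32851 promoter windows of that length. The antioxidant core was in 15 of the 99 (15.2%), against 10.2% of all windows, and in 3 of the 13 such members at least 1.5-fold higher. The NF-kB core was in 1 of the 99 (background 3.23%) and the TCF/LEF core in 4 (background 3.21%), none of them at least 1.5-fold different. Each member had 1 window, the one nearest the deposited gene start. The background took all windows, without that choice and without the count minimum. The shares of members and of all windows are therefore not like for like. A match is a description of letters, and binding was not measured.

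**Figure D2:**
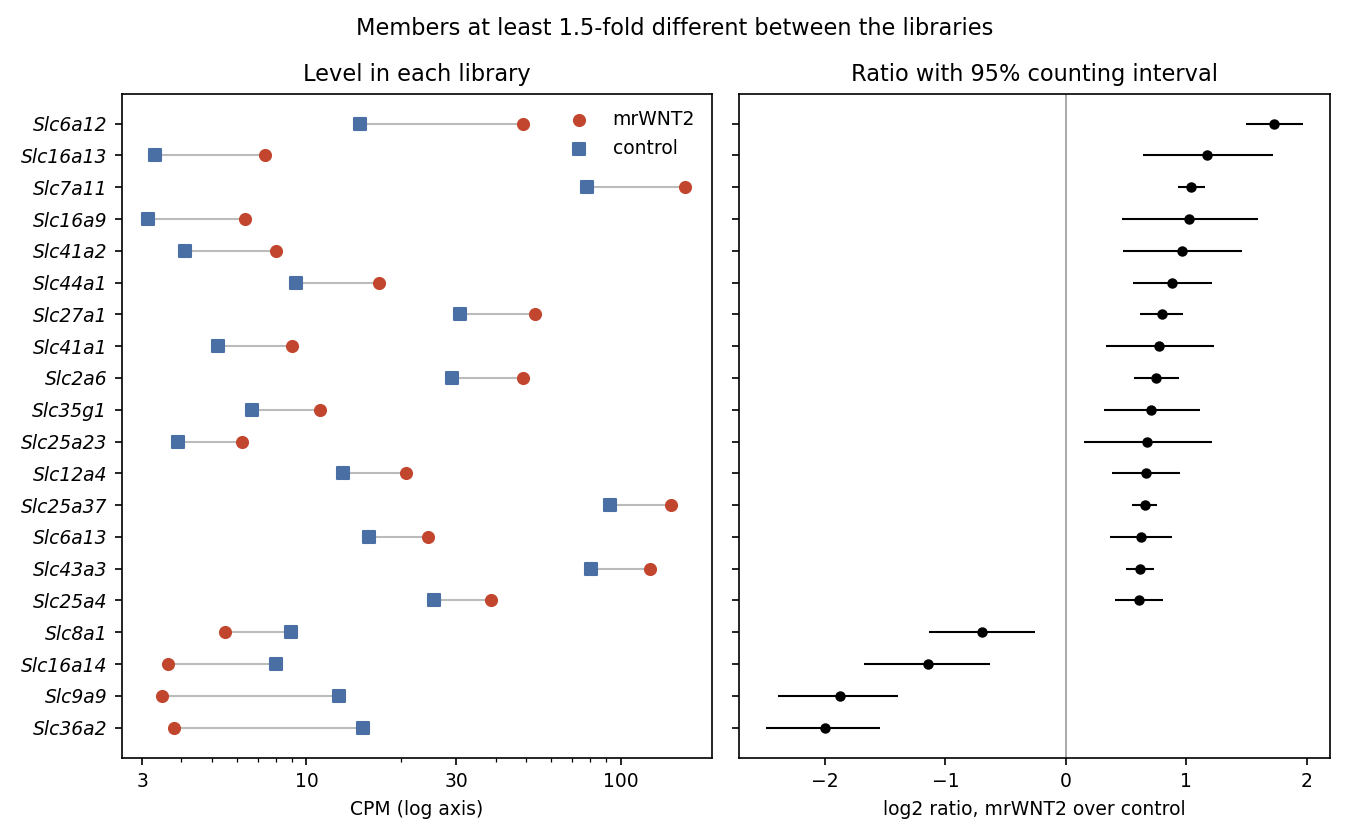
The 20 members at least 1.5-fold different. Left, CPM on a log axis in mrWNT2 (red circles) and control (blue squares). Right, log2 ratio of mrWNT2 over control with its 95% counting interval. The 16 upper genes lie right of 0 and the 4 lower ones left of it, and none of the 20 intervals reaches 0.

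Amino acid transporters were the group with the widest spread. Among 23 members, 3 stood at least 1.5-fold higher, 1 stood lower and 19 lay between, with a median log2 ratio of 0.13. Slc36a2 (ENSMUSG00000020264, chromosome 11, 55158470 to 55185077) encodes PAT2, a proton-coupled carrier of glycine, alanine and proline, and was the lowest of all members. It had 48 counts in mrWNT2 and 202 in control, or 3.77 and 15.1 CPM, a 4.0-fold lower value (2.91 to 5.6). Its relatives Slc36a1 and Slc36a4 were within 1.5-fold, so the difference was not shared by the family. Light chains that pair with CD98 lay on both sides of 1. Slc7a5, the large neutral amino acid transporter LAT1, had 74.3 CPM in mrWNT2 and 91.8 CPM in control and was 1.24-fold lower (1.13 to 1.35). Slc7a6 was 1.34-fold higher (1.13 to 1.60), whereas Slc7a7 and Slc7a8 had intervals that included 1.

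Transporters of glutamine and other neutral amino acids also split. Slc38a2 (SNAT2), which amino acid shortage is known to induce, was 1.23-fold lower (1.19 to 1.28), at 403 CPM in mrWNT2 and 496 CPM in control. Slc38a1 (SNAT1) was 1.26-fold higher (1.17 to 1.36), and the glutamine exchanger gene Slc1a5 was 1.15-fold higher (1.04 to 1.26). Slc38a9, a lysosomal arginine sensor of the mTORC1 pathway, had an interval that included 1. All 15 measured genes of that lysosomal sensing machinery were within 1.5-fold. Slc43a2, a carrier of branched-chain amino acids, had 340 CPM in mrWNT2 and 291 CPM in control. The taurine transporter gene Slc6a6 had 459 CPM in mrWNT2 and 521 CPM in control (1.13-fold lower, 1.1 to 1.17), a direction opposite to Slc6a12 and Slc6a13. The creatine transporter gene Slc6a8 was 1.28-fold higher (1.05 to 1.57). Slc6a4, the serotonin transporter of platelets and basophils, had 144 counts in mrWNT2 and 128 in control, with an interval that included 1, as did Slc18a2, the vesicular monoamine transporter. Basophil and mast cell markers summed to 368 CPM in mrWNT2 and 380 CPM in control, but they did not move together. Of 8 measured, 7 were within 1.5-fold and Kit was 2.15-fold lower (1.82 to 2.54). Among the 7, Cpa3 was 1.34-fold lower (1.21 to 1.49) and Hdc 1.21-fold higher (1.12 to 1.30).

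Mitochondrial carriers, the Slc25 family, were the largest group, with 31 members. At least 1.5-fold higher were 3 of them, with 0 lower and 28 between, with a median log2 ratio of 0.12. Slc25a37 encodes mitoferrin-1, which brings iron into mitochondria and is best known in red cell precursors. It had 1846 counts in mrWNT2 and 1234 in control, or 145 and 92.3 CPM, and was 1.57-fold higher (1.46 to 1.69). Its relative Slc25a28 (mitoferrin-2) was 1.30-fold lower (1.10 to 1.54), so the iron carriers lay on opposite sides of 1. Erythroid markers were near 0, with 0 of 11 at 100 counts and a sum of 2.91 CPM in mrWNT2 and 2.69 CPM in control, and Hbb-bs and Car1 had no count. Among the ADP/ATP carriers, Slc25a4 was 1.52-fold higher (1.32 to 1.75) and Slc25a5 1.15-fold higher (1.1 to 1.2). Slc25a4 fell just short of 1.5-fold under DESeq2 size factors and under upper-quartile scaling. Slc25a5 was the most abundant member per gene length, at 203 FPKM in mrWNT2 and 180 FPKM in control (fragments per kilobase of gene, scaled to library size). Both have close relatives in the genome, and Slc25a5 has processed copies, which leaves it uncertain how reads were split among them.

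The highest ratio of the family was that of the calcium-regulated ATP-Mg carrier gene Slc25a23, which was 1.60-fold higher (1.11 to 2.31), from 79 counts in mrWNT2 and 52 in control. Its relatives Slc25a24 and Slc25a25 were at ratios of 0.981 and 1.40. Slc25a1, the citrate carrier that feeds lipid synthesis, was 1.35-fold higher (1.21 to 1.51). Slc25a20, which carries acylcarnitines in for oxidation, was 1.17-fold lower (1.06 to 1.29). Low carriers beside Slc25a28 were Slc25a32 (mitochondrial folate and FAD, 1.38-fold lower, 1.09 to 1.75), Slc25a26 (S-adenosylmethionine, interval including 1) and Slc25a38 (glycine for haem synthesis, 1.26-fold lower, 1.03 to 1.53). Slc25a25 overlaps Naif1 and Slc25a11 overlaps Rnf167 on the opposite strand. The labels record no strand setting for the counting, so reads of such pairs may be mixed. The same holds for Slc5a6 with Atraid, Slc26a10 with B4galnt1, Slc7a7 with Oxa1l, Slc31a1 with Cdc26, Slc48a1 with Hdac7 and Slc16a6 with Amz2. None of the 20 members at least 1.5-fold different has such a partner.

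**Figure D3:**
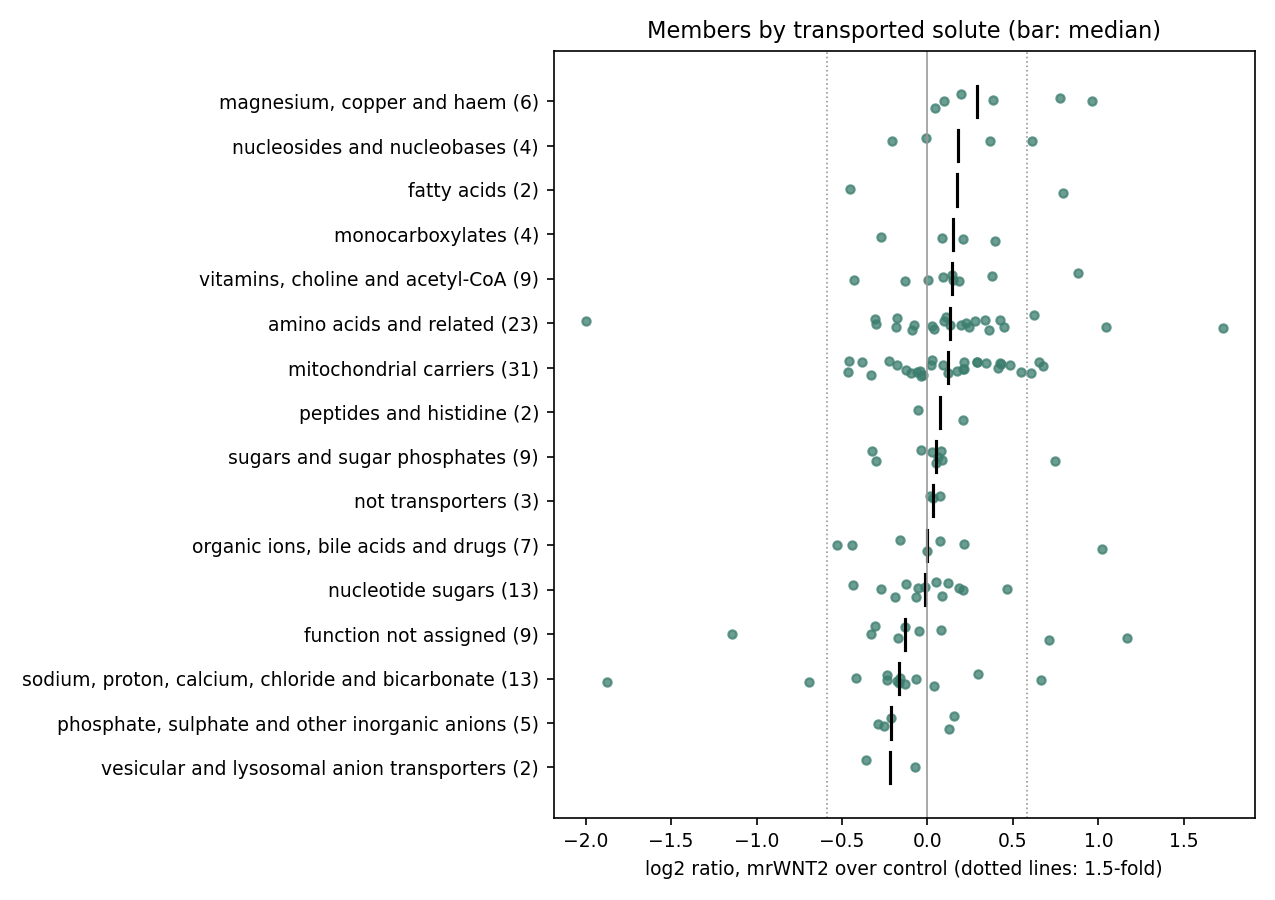
Log2 ratio of mrWNT2 over control (x axis) of each member, by class of transported solute (rows, with the number of members), with a bar at each class median and dotted lines at 1.5-fold. Class medians lie between -0.22 and 0.29, and the members farthest out belong to amino acid carriers, ion exchangers and genes with no assigned function.

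The Slc16 family held members far from 1 in both directions. Slc16a13 (ENSMUSG00000044367, chromosome 11, 70216789 to 70221064) had 94 counts in mrWNT2 and 44 in control and was 2.25-fold higher (1.55 to 3.29). Slc16a9 (chromosome 10, 70245100 to 70285968), whose human counterpart is a carnitine and creatine transporter, had 81 and 42 counts in mrWNT2 and control and was 2.03-fold higher (1.38 to 3.02). Slc16a14 (chromosome 1, 84905898 to 84935134) had 46 counts in mrWNT2 and 107 in control and was 2.21-fold lower (1.55 to 3.2). These are weakly expressed genes of the family that are not among its classical lactate carriers. Under upper-quartile scaling the log2 ratio of Slc16a9 was 0.97. The lactate and pyruvate carriers differed less. Slc16a3 (MCT4), the lactate exporter of glycolytic cells, had 209 CPM in mrWNT2 and 181 CPM in control (1.15-fold higher, 1.09 to 1.22). Slc16a1 (MCT1) was 1.32-fold higher (1.09 to 1.59), and the intervals of Slc16a6 and Slc16a7 included 1. Their chaperone gene Bsg was 1.31-fold higher (1.23 to 1.39), at 190 CPM in mrWNT2 and 146 CPM in control.

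Of 9 members that carry sugars or sugar phosphates, 1 was at least 1.5-fold higher and 8 were between (median log2 ratio 0.05). Slc2a6 encodes GLUT6, an intracellular hexose transporter known to be induced in inflammatory macrophages. It had 623 counts in mrWNT2 and 390 in control, or 49.0 and 29.2 CPM, and was 1.68-fold higher (1.48 to 1.91). Slc2a9, the urate and hexose transporter, was 1.23-fold lower (1.002 to 1.52). The glucose-6-phosphate transporter genes Slc37a2 and Slc37a4 had intervals that included 1, and the related Slc37a3 was 1.25-fold lower (1.07 to 1.46).

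The genes of the fatty acid transport proteins lay on opposite sides of 1. Slc27a1 (FATP1) was 1.74-fold higher (1.53 to 1.97), with 680 counts in mrWNT2 and 412 in control. Slc27a4 (FATP4) was the second most abundant member per gene length, at 88.4 FPKM in mrWNT2 and 124 FPKM in control. It was 1.37-fold lower (1.32 to 1.42) and had the largest loss of all members, at 394 CPM in mrWNT2 and 540 CPM in control.

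Of 6 magnesium, copper and haem transporter genes, 2 were at least 1.5-fold higher and 4 between, with the highest median of any class (log2 ratio 0.29). The magnesium transporter genes Slc41a2 and Slc41a1 were the 2. Slc41a2 had 102 counts in mrWNT2 and 55 in control (1.95-fold higher, 1.39 to 2.76), and Slc41a1 had 114 and 70 counts in mrWNT2 and control (1.71-fold higher, 1.26 to 2.34). The third relative, Slc41a3, had a ratio of 1.03. The copper importer gene Slc31a1 was 1.31-fold higher (1.22 to 1.40), and its neighbour Slc31a2 was 1.15-fold higher (1.07 to 1.23). Slc48a1, which moves haem out of phagolysosomes, was 1.07-fold higher (1.01 to 1.14).

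Ion exchangers and cotransporters held the second lowest member. Among 13 members, 1 stood at least 1.5-fold higher, 2 stood lower and 10 lay between, with a median log2 ratio of -0.16. Slc9a9 (ENSMUSG00000031129, chromosome 9, 94669909 to 95230445) encodes the endosomal sodium-proton exchanger NHE9. It had 44 counts in mrWNT2 and 170 in control, or 3.46 and 12.7 CPM, a 3.67-fold lower value (2.62 to 5.24). Its relative Slc9a8 was 1.12-fold lower (1.01 to 1.25). Slc8a1, the sodium-calcium exchanger NCX1, had 70 counts in mrWNT2 and 119 in control and was 1.62-fold lower (1.19 to 2.2), and the related Slc24a3 was 1.34-fold lower (1.06 to 1.68). In the other direction, the potassium-chloride cotransporter gene Slc12a4 (KCC1) was 1.59-fold higher (1.31 to 1.93), and the bicarbonate transporter gene Slc4a7 was 1.23-fold higher (1.04 to 1.44).

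Vitamin, choline and acetyl-CoA transporters held 1 of 9 members at least 1.5-fold higher and 8 between (median log2 ratio 0.15). The choline transporter gene Slc44a1 had 217 counts in mrWNT2 and 124 in control and was 1.84-fold higher (1.47 to 2.31), while its abundant relative Slc44a2 was 1.11-fold higher (1.04 to 1.17). Riboflavin transporter genes were lower or near 1. Slc52a3 was 1.35-fold lower (1.13 to 1.62), and the interval of Slc52a2 included 1. The reduced folate carrier gene Slc19a1 had 126 counts in mrWNT2 and 132 in control. It overlaps Col18a1 on the other strand, which had 119 counts in mrWNT2 and 69 in control.

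Nucleoside and nucleobase carriers held 1 of 4 at least 1.5-fold higher. Slc43a3, a purine nucleobase transporter, had 1573 counts in mrWNT2 and 1081 in control and was 1.53-fold higher (1.42 to 1.65). Its log2 ratio was 0.580 under DESeq2 size factors and 0.562 under upper-quartile scaling, both just short of 1.5-fold. Slc29a1 (ENT1) was 1.29-fold higher (1.08 to 1.53), the lysosomal carrier gene Slc29a3 (ENT3) was 1.16-fold lower (1.01 to 1.32), and the interval of Slc28a2 included 1. The 13 nucleotide sugar transporters, which supply the Golgi and endoplasmic reticulum, were all within 1.5-fold (median log2 ratio -0.02). At their ends stood the UDP-galactose transporter gene Slc35a2, 1.38-fold higher (1.15 to 1.66), and Slc35a5, 1.35-fold lower (1.22 to 1.5).

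Among lysosomal carriers that serve innate sensing, both peptide and histidine transporter members were within 1.5-fold. Slc15a3, a peptide and histidine transporter, had 139 CPM in mrWNT2 and 120 CPM in control (1.16-fold higher, 1.08 to 1.24). Slc15a4, which endosomal Toll-like receptor signalling requires, had 233 and 255 counts in mrWNT2 and control with an interval that included 1. Slc17a9, the vesicular ATP transporter, was 1.28-fold lower (1.18 to 1.39). Below the count minimum, Slc46a3 had 24 counts in mrWNT2 and 63 in control and was 2.50-fold lower (1.54 to 4.18). Slc46a1 (20 counts in each) and Slc46a2 (0 in each) were also below it, as were Slc12a2 and Slc1a4. Phosphate and sulphate carriers, 5 members, were all within 1.5-fold (median log2 ratio -0.21). The highest, Slc20a2, the lowest, Slc26a11, and the most counted, the phosphate transporter gene Slc20a1 (843 counts in mrWNT2, 813 in control), had intervals that included 1. Organic ion carriers, 7 members, ran from Slc22a20 (1.45-fold lower, 1.07 to 1.97, from 73 counts in mrWNT2 and 111 in control) to Slc16a9. Slc22a15 was 1.36-fold lower (1.23 to 1.49), and the carnitine transporter gene Slc22a5 and its neighbour Slc22a4 had intervals that included 1.

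Members without an assigned function included 2 that were at least 1.5-fold higher and 1 lower of 9. Beside Slc16a13 and Slc16a14, described above, Slc35g1 had 140 counts in mrWNT2 and 90 in control and was 1.64-fold higher (1.25 to 2.16). Slc35e1 was abundant, at 202 CPM in mrWNT2 and 251 CPM in control (1.24-fold lower, 1.18 to 1.30). The symbol rule also took in 3 genes that encode no transporter, and these were within 1.5-fold. They are Slc9a3r1, a scaffold for membrane proteins at 91.1 FPKM in mrWNT2 and 92.3 FPKM in control, Slc4a1ap and Slc7a6os.

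The levels per gene length showed where the differing members stood. The 16 higher members had a median mean FPKM of 5.43 (0.951 to 22.9), the 4 lower members 2.10 (1.43 to 2.92), and the 122 others 6.16 (0.572 to 191). None of the 10 most abundant members, led by Slc25a5 and Slc27a4, was 1.5-fold different. The 16 higher members came from 11 families and 11 chromosomes. The 4 lower members came from 4 families.

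Genes that work with SLC proteins were followed as lists. Of 55 transporter genes of the same kind under other symbols, 41 reached 100 counts, with 2 of them 1.5-fold higher or more, 2 lower by as much and 37 between (median log2 ratio -0.11). Mfsd7a had 32.7 CPM in mrWNT2 and 13.1 CPM in control (2.50-fold higher, 2.09 to 3.0), and Slco3a1 was 1.56-fold higher (1.27 to 1.91). The organic anion transporter gene Slco2b1 was 2.22-fold lower (1.73 to 2.87), and the mitochondrial carrier gene Sfxn5 1.56-fold lower (1.34 to 1.82). Of 16 measured partner, chaperone and regulator genes, 1 was at least 1.5-fold higher and 15 between. It was Sgk1, a kinase that regulates many channels and transporters, with 238 CPM in mrWNT2 and 73.7 CPM in control (3.23-fold higher, 3.0 to 3.47). All 5 measured Na,K-ATPase subunit genes, which build the sodium gradient that many SLC proteins use, were within 1.5-fold. Of 20 measured proton pump subunit genes, 19 were within 1.5-fold and Atp6v1c2 was 2.39-fold lower (1.56 to 3.75), from 31 counts in mrWNT2 and 78 in control.

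Markers of cell types in such cultures also differed between the libraries. Of 11 measured macrophage markers, 8 were at least 1.5-fold lower and 2 higher, and the 12 listed summed to 1871 CPM in mrWNT2 and 2787 CPM in control. The 2 higher were Marco and Adgre1. Marco was 8.67-fold higher (7.94 to 9.48), at 363 CPM in mrWNT2 and 41.9 CPM in control. Adgre1 had 584 CPM in mrWNT2 and 325 CPM in control. The lower sum in mrWNT2 therefore joins macrophage markers that went in opposite directions. Of 11 neutrophil markers, 4 were at least 1.5-fold lower and 0 higher, with sums of 67800 and 84235 CPM in mrWNT2 and control. Of 7 measured monocyte markers, 3 were at least 1.5-fold higher and 0 lower, with sums of 2788 CPM in mrWNT2 and 2258 CPM in control. The 3 were Csf1r, Cd14 and Fn1, and the median log2 ratio of the list was -0.05. The 4 between, Ly6c2, Ccr2, Itgam and Spn, were all lower in mrWNT2, with intervals below 1. Megakaryocyte markers summed to 259 CPM in mrWNT2 and 532 CPM in control, with Gp1bb at 0. Most of that difference came from Pf4, at 150 CPM in mrWNT2 and 414 CPM in control. Of the 3 measured megakaryocyte markers, the other 2 were within 1.5-fold. The other lists lay on both sides of equal. T and NK cell markers summed to 104 CPM in mrWNT2 and 53.0 CPM in control, with Thy1 7.48-fold higher (6.0 to 9.4). Most of that difference came from Thy1, at 51.4 CPM in mrWNT2 and 6.88 CPM in control. Of the 3 measured T and NK cell markers, the other 2 were within 1.5-fold. T cell receptor genes were near 0, with Cd3d at 9 counts in mrWNT2 and 14 in control, Cd3e at 0 and 1, and Trac at 2 and 1. Osteoclast markers summed to 253 CPM in mrWNT2 and 170 CPM in control, with Acp5 2.77-fold higher (2.43 to 3.16) and Calcr at 0. Stroma and endothelium markers summed to 83.7 CPM in mrWNT2 and 73.8 CPM in control, but they did not move together. Pecam1 gave the largest part of both sums, at 47.9 CPM in mrWNT2 and 41.6 CPM in control. Lepr was 7.94-fold higher (5.65 to 11.5), at 22.6 CPM in mrWNT2 and 2.84 CPM in control. Col1a1 was lower, at 62 counts in mrWNT2 and 170 in control. Col1a2, Sparc and Bgn, with fewer counts, were also lower, with intervals below 1. Dcn was higher, from 15 counts in mrWNT2 and 2 in control. B cell markers summed to 31.8 CPM in mrWNT2 and 49.95 CPM in control, dendritic markers to 33.2 CPM in mrWNT2 and 35.7 CPM in control, and eosinophil markers to 1590 CPM in mrWNT2 and 1606 CPM in control. None of the defining macrophage, neutrophil and monocyte markers was at 0 in both libraries. The part of cell makeup in the member differences, among them those of Slc36a2, Slc9a9 and Slc6a12, was not tested.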

How the data were processed

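RNA-seq libraries of mrWNT2-treated and control MDSC cultures were compared, 1 of each. Per the labels' protocols, TRIzol RNA went into NEBNext Ultra libraries. Tools named in the submitters' processing notes are HISAT2 2.0.5, featureCounts 1.5.0-p3, fastp, CASAVA 1.8 and DESeq2 1.20.0, with the build GRCm38. The authors deposited raw counts per gene and, in a second table, FPKM values, and no strand setting was found in the labels or notes. Of the 142 members, all were found in the GENCODE annotation of GRCm38, 135 with the same position.

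Counts were scaled with TMM in edgeR 4.0.16 (R 4.3.3). Ratios are mrWNT2 over control without a pseudocount, with exact 95% Clopper-Pearson intervals (scipy 1.17.1) that cover counting error only. With 1 library per group, variation between cultures could not be estimated. Reads also carry no molecular identifiers. At 0 counts, a floor of 3 counts corresponds to 0.236 CPM in mrWNT2 and 0.224 CPM in control. FPKM served for levels between genes and as an alternative. The method was tested on simulated counts that held counting error only, as the intervals assume. That test therefore cannot show how the intervals act when cultures vary. No p-value is given, since each group has 1 library.

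The members, solute classes and lists were chosen with earlier results of these data known. The naming rule took the 15 members highest and the 15 lowest by ratio, the 10 highest FPKM, the 6 largest gains and losses, the ends of each class of at least 5 members, the 3 genes on each side of the count minimum and a preset group. Other members, and list genes within 1.5-fold, were named after their values were seen, and some genes the rule took are not reported here. Promoter windows were used for the 99 members with a RefSeq start within 1000 bases of the deposited gene start, of 108 in the table. Alternatives were DESeq2 (1.42.0) size factors, library totals, upper-quartile factors, FPKM ratios, and minimums of 500, 20 and no counts. The FPKM ratios were shifted by the same amount as those under DESeq2 size factors (-0.034 log2), so they are not a separate check. One more, without the 3 genes that encode no transporter, was chosen after seeing the data.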

Additional observations from a re-analysis of the deposited data

How the results depend on the processing

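Of the recomputed member counts and medians, 33 stayed near the reported value and 11 did not, where near means within 1.5 times for a count and within the counting interval of the middle gene for a median. Class medians were labelled near in 67 cases and moved in 13 under that definition. The label is not reliable for the smallest classes. The fatty acid class of 2 genes was labelled moved under the minimum of 500 counts, though its median stayed at 0.17. The 13 are therefore not all medians that changed. FPKM ratios and DESeq2 size factors gave the same shift (-0.034 log2), and both are counted in these totals. Upper-quartile factors left 2 members at least 2-fold higher. A minimum of 500 counts left 8 at least 1.5-fold higher, 0 lower, 2 at least 2-fold higher and 0 lower, by its construction over 87 genes. A minimum of 20 counts gave 13 at least 1.5-fold lower and 7 at least 2-fold higher. No minimum gave 37 higher and 27 lower at 1.5-fold, and 16 higher and 10 lower at 2-fold, over 225 genes. The share of all protein-coding genes at these lower minimums is not given. The counts there show only how the minimum acts and cannot set SLC genes apart from others. Leaving out the 3 genes that encode no transporter gave the same counts. Every member past 1.5-fold also had an interval that excluded 1. Scalings shifted all log2 ratios by between -0.05 and 0.02. Shifts this small could not reverse a member past 1.5-fold, so the unchanged directions are not a check of those members. No paired analysis was possible because each group has 1 library, and leaving out a library was not possible either. Depth limits the weakly expressed members, whose intervals were the widest.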
